A study of Mus musculus with 19 samples.

Results

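Addition of an antibody against PD1 to regorafenib was followed across all genes in carcinogen-induced oral squamous tumours of mice of the C57BL/6J strain, by setting 5 tumour libraries of regorafenib with anti-PD1 (the combination) against 4 of regorafenib alone. These 9 libraries are those whose sample titles name either treatment, out of 19 in the series. The other groups used for levels were anti-PD1 alone (3 libraries) and vehicle (4). The remaining 3 libraries, from mice given an anti-CD40 agonist, entered the fit and are cited once, for stomach genes. All mice, vehicle included, had received the carcinogen 4-nitroquinoline 1-oxide (4NQO) at 100 µg/ml in their water from 6 weeks of age for 10 weeks, and no gene was altered in any group. Regorafenib was given at 5 mg/kg/day, and the labels state neither a separate dose for the combination nor a dose for anti-PD1. Each tumour was profiled by RNA sequencing of polyadenylated RNA. Whether the libraries of a group came from separate animals is not stated in the labels, so the p-values rest on the spread between libraries, part of which may be technical.

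Regorafenib is an oral inhibitor of several receptor kinases, among them those for platelet-derived and for vascular endothelial growth factors, and acts on tumour vessels and stroma. PD1, encoded by Pdcd1, is an inhibitory receptor of T cells. Antibodies that block it release T cells from the signal of its ligand PD-L1, and the interferon-gamma that activated T cells secrete induces guanylate-binding proteins, antigen presentation genes and the chemokines Cxcl9 and Cxcl10 in tumours. The comparison asks what anti-PD1 changed in tumours that already received the kinase inhibitor.

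Library totals ran from 16776177 to 23435619 counts in the combination and from 17096257 to 22653163 with regorafenib alone. Levels are counts-per-million (CPM) of counts scaled between libraries by TMM, and changes are log2 estimates ± SE of edgeR's quasi-likelihood fit, with Benjamini-Hochberg adjusted p-values over the 16909 genes tested. Krt14, a keratin that defines basal cells of squamous epithelium, was abundant in every library, between 1997 and 3588 CPM in the combination and between 3377 and 4645 CPM with regorafenib. Along the main axis of variation of the 9 libraries, which held 52.0% of the variance and was led by salivary gland genes, the 2 groups accounted for 0.287% of the spread. Along the second axis, which held 22.95% and was led by stomach genes, they accounted for 85.9%. The 20 genes of a skeletal muscle list averaged 9.69 to 10.2 on the log2 CPM scale in the combination and 9.22 to 9.70 with regorafenib, and 60.9% of the variance of this mean lay between the groups. Transcripts of ribosomal protein genes took 2.48% to 2.88% of counts in the combination and 3.17% to 3.48% with regorafenib, ranges that did not meet.

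Of the 16909 genes tested, 958 were higher and 810 lower in the combination than with regorafenib alone at an adjusted p under 0.05, which is 10.5% of genes in all, 5.67% higher and 4.79% lower. Over all genes DESeq2 called 1392 higher and 1104 lower, and limma 1602 and 1450, both more than edgeR. Counts of list members by those 2 tools are to be read against these totals and not against edgeR's shares. Most changes were small. Called genes had a median absolute log2 change of 0.36, and 29 genes were called higher and 19 lower by at least 2-fold. The 5 libraries of the combination lay entirely above the 4 of regorafenib for 1224 genes (7.24%) and entirely below for 1140 (6.74%). The number of calls depended on single libraries. It was 484 without regorafenib 4, 716 without combination 1, 800 without combination 3, 942 without regorafenib 1 and 1109 without regorafenib 3. When the mean of the skeletal muscle list entered the fit as a covariate, 5 genes were called, namely Dmd, Ppp1r12b, Sgcd, Clps and Pla2g1b. In that fit all 1768 genes kept their direction, with a median log2 change of 0.23 in that direction and a median SE of 0.0931, against 0.0897 without the covariate.

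**Figure D1:**
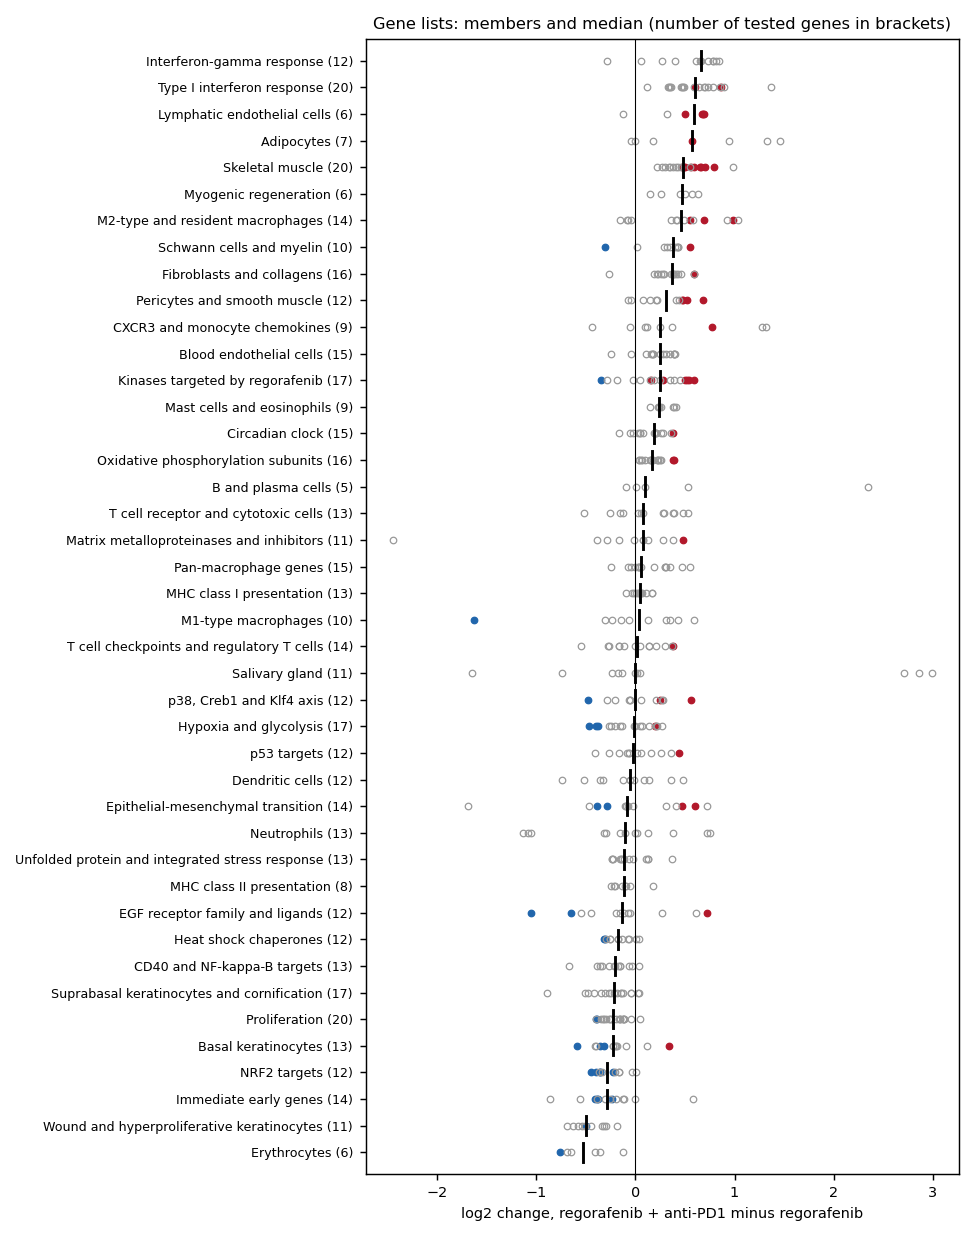
Changes of 42 gene lists between the combination and regorafenib. Each circle is a tested gene placed by its log2 change, red where it was called higher, blue where it was called lower and open grey where it did not pass, and the black bar is the list's median; the stomach list, with fitted changes down to -12.44, is left out. The skeletal muscle list has a median of 0.48 with all 20 genes right of 0, and immediate early genes and NRF2 targets lie mostly left of it.

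Genes of muscle fibres rose, 9 of the 20 tested genes of the skeletal muscle list being called higher and none lower, against 5.67% of all genes called higher. DESeq2 and limma, which called more genes higher over all genes (1392 and 1602, against 958 by edgeR), each called 14 of the 20. The list's median log2 change was 0.48 against -0.01 over all genes tested. The 9 were Neb, Ryr1, Atp2a1, Xirp2, Ttn, Myh4, Acta1, Des and Myh1, which encode filaments, calcium handling and sarcomere proteins. In bulk tumour RNA, fewer cells of a type and less RNA per cell cannot be told apart. Neb (ENSMUSG00000026950.18, chromosome 2 from 52136647 to 52378474 on GRCm38), the giant protein that spans the thin filament, stood at 1604, 1602, 1710, 1356 and 1482 CPM in combination 1 to 5, against 1078, 1019, 945 and 872 CPM in regorafenib 1 to 4. All 5 libraries of the combination were above all 4 of regorafenib, and the log2 change was 0.66 ± 0.10 (SE; adjusted p = 0.00341). Neb averaged 1296 ± 110 CPM with anti-PD1 (SD, n = 3) and 1548 ± 179 CPM with vehicle (n = 4).

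Ryr1 (ENSMUSG00000030592.18, chromosome 7 from 29003344 to 29125179), through which calcium leaves the sarcoplasmic reticulum, was measured at 1070, 951, 1143, 889 and 936 CPM in the combination, against 662, 669, 622 and 587 CPM with regorafenib. No library of 1 group reached the range of the other, with a log2 change of 0.65 ± 0.10 (adjusted p = 0.00352). Atp2a1, the pump that returns calcium to the reticulum, averaged 8162 ± 832 CPM in the combination (SD, n = 5) and 5404 ± 552 CPM with regorafenib (n = 4), a log2 change of 0.59 ± 0.12 (adjusted p = 0.0086). Xirp2, an actin-binding protein of muscle attachment sites, averaged 599 ± 71.9 and 367 ± 62 CPM in those groups, a log2 change of 0.71 ± 0.15 (adjusted p = 0.00932). Each of these 4 genes kept its call with every library left out in turn, and each lost it with the muscle mean, to which they contribute, as a covariate. Of 6 tested genes of muscle regeneration, such as the transcription factor gene Myog, edgeR, DESeq2 and limma each called 0, with 3 at an unadjusted p under 0.05. Myog stood at 7.05 ± 1.91 CPM in the combination and 5.15 ± 1.04 CPM with regorafenib (log2 change 0.45 ± 0.20, adjusted p = 0.156).

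Promoters of muscle genes often carry the site of MEF2 factors. The windows of Xirp2 and Ttn are shown because both genes were called and both hold a match. They run from 250 bases before to 50 after the start of the gene (RefSeq, GRCm38.p6), with matches in capitals to CTA and TAG with any 4 bases between them. Xirp2 lies at chr2:67445752-67446051 on the plus strand and Ttn at chr2:76982498-76982797 on the minus strand.
Xirp2: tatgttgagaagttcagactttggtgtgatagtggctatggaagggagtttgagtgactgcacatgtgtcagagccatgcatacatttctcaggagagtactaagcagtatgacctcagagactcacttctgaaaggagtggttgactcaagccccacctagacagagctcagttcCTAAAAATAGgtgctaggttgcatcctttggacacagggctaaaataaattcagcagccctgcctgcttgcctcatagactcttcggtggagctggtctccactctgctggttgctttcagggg
Ttn: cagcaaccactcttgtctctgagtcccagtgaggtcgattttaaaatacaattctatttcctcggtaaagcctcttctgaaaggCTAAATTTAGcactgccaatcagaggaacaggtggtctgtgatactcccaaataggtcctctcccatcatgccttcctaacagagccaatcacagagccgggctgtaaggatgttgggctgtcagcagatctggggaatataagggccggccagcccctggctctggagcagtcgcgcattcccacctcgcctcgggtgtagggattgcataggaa
Both strands were searched, and the motif reads the same on either. A match was found in 3 of the 16 muscle genes with a window (Xirp2, Ttn and Des), which is 18.8%, against 4.23% of the 27025 genes of the promoter table. A match describes the letters and is not evidence of binding. Mef2c, which encodes a MEF2 factor, stood at 271, 249, 286, 279 and 214 CPM in the combination, against 192, 192, 174 and 148 CPM with regorafenib. Each combination library was above each regorafenib library, and the log2 change was 0.56 ± 0.11 (adjusted p = 0.00735). Mef2c averaged 260 ± 29.3 CPM in the combination and 257 ± 24.1 CPM with vehicle. It lost its call with the muscle mean as a covariate. Whether its product acts on the muscle genes was not tested.

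Dmd, Sgcd and Sspn rose, which encode parts of the complex that ties the cytoskeleton of muscle fibres and smooth muscle cells to the matrix. The other genes of that complex formed no list here and were not counted. Dmd (ENSMUSG00000045103.19, chromosome X from 82948870 to 85206141), which encodes dystrophin, had the smallest p of the genes outside the stomach list and was picked for that after its values were seen. Dmd stood at 93.1, 100, 107, 89 and 87.2 CPM in the combination, against 57.8, 60.7, 56.4 and 50.9 CPM with regorafenib. The groups stood well apart, and the log2 change was 0.76 ± 0.09 (adjusted p = 0.000911). Dmd averaged 78.1 ± 9.66 CPM with anti-PD1 and 92.6 ± 3.03 CPM with vehicle. Sgcd (ENSMUSG00000020354.15, chromosome 11 from 46896253 to 47988969), delta-sarcoglycan of the same complex, was at 8.88, 7.86, 9.14, 10.1 and 8.67 CPM in the combination, against 3.50, 4.78, 4.67 and 3.32 CPM with regorafenib. Every combination library exceeded every regorafenib library, and the log2 change was 1.13 ± 0.15 (adjusted p = 0.00106). Sgcd averaged 6.94 ± 1.11 CPM with anti-PD1 and 8.73 ± 1.49 CPM with vehicle. Sspn, or sarcospan, also picked after its values were seen, averaged 73.2 ± 8.98 CPM in the combination and 50.7 ± 2.71 CPM with regorafenib (log2 change 0.53 ± 0.08, adjusted p = 0.00407). Dmd and Sgcd remained called with the muscle mean as a covariate, at log2 changes of 0.55 (adjusted p = 0.011) and 1.05 (adjusted p = 0.0442).

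**Figure D2:**
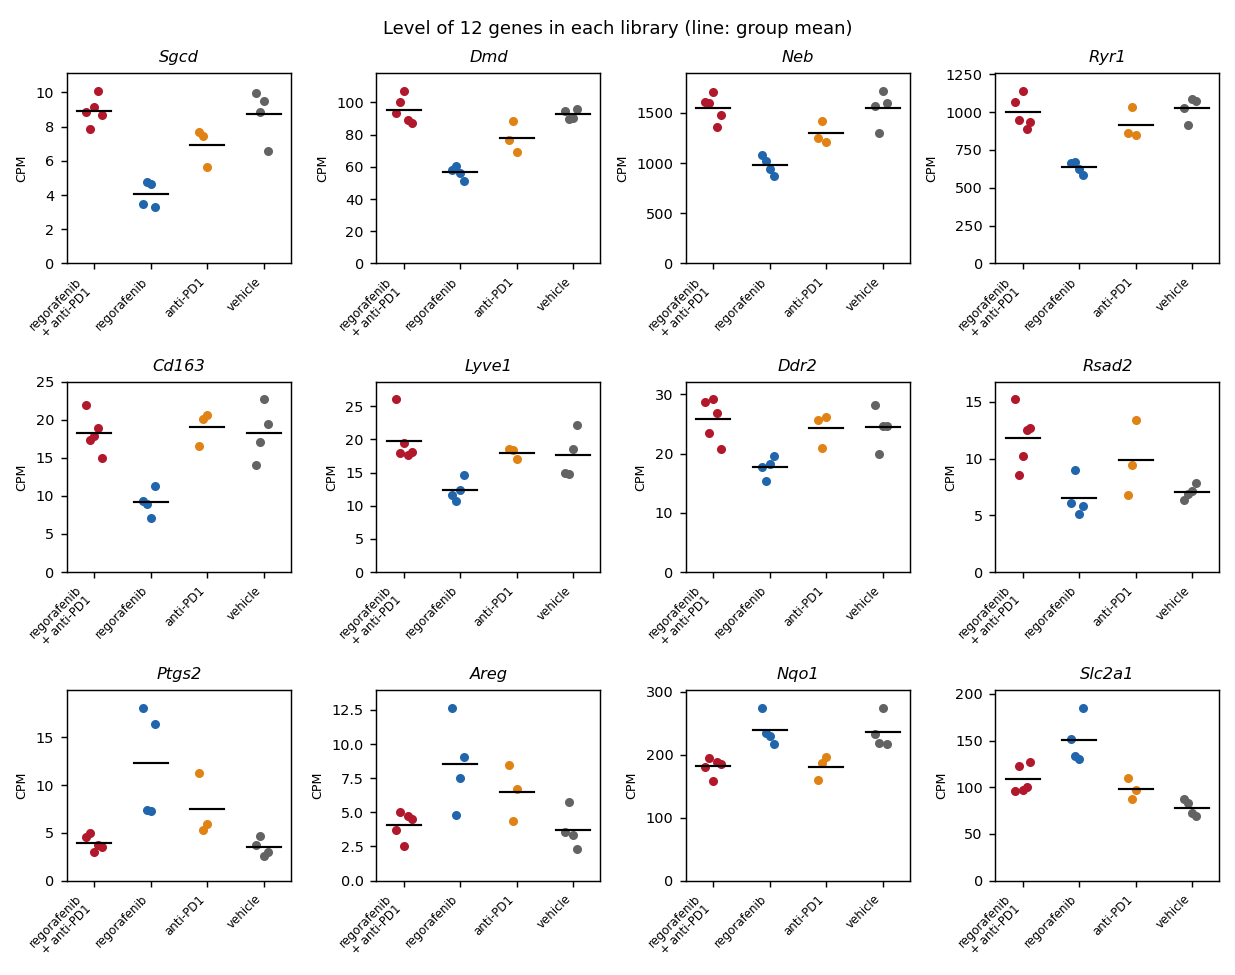
Levels of 12 genes in each library, in CPM on linear axes that start at 0, with 1 point per library and a line at the group mean. For Sgcd, Dmd, Neb, Ryr1, Cd163, Lyve1 and Ddr2 every combination library lies above every regorafenib library, for Ptgs2, Nqo1 and Slc2a1 every one lies below, and Rsad2 and Areg overlap.

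The 10 largest rises among genes with at least 1 CPM in either group were of low or moderate level. Cnksr2, a scaffold protein of Ras signalling, was at 1.26, 1.24, 1.17, 1.16 and 0.548 CPM in the combination, against 0.401, 0.222, 0.451 and 0.222 CPM with regorafenib. The groups did not overlap, although combination 5 stood low, and the log2 change was 1.75 ± 0.30 (adjusted p = 0.00504). Ackr4, a scavenging receptor for the chemokines that attract cells to lymphatics, averaged 3.94 ± 0.988 CPM in the combination and 1.76 ± 0.486 CPM with regorafenib (log2 change 1.17 ± 0.24, adjusted p = 0.00927). Capn3, the calpain protease of skeletal muscle, averaged 4.78 ± 0.919 and 2.15 ± 0.219 CPM in those groups (log2 change 1.15 ± 0.18, adjusted p = 0.00434). The others were Sgcd, Tlr8 (an endosomal RNA receptor), Dlk1 (a Notch-like protein), Phex (a peptidase), Efcc1, Hectd2os and Dnm3os, with log2 changes between 1.06 and 1.13. Of the 10, Cnksr2, Ackr4, Capn3, Sgcd and Dlk1 kept their calls with each library left out in turn. DESeq2 did not call Cnksr2, Tlr8, Efcc1 or Hectd2os, and Cnksr2 had 106 counts over the combination and 25 over regorafenib. Tlr8 lost its call without combination 1 or regorafenib 2 (highest adjusted p = 0.0555), Dnm3os without combination 1, regorafenib 2 or regorafenib 4 (highest 0.0844), and Phex, Efcc1 and Hectd2os each without 6 of the 9 libraries (highest 0.102, 0.0644 and 0.107).

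The 10 largest falls were transcripts of the stomach and Ush1c, a gene for a scaffold protein of microvilli. Of 13 tested genes of the stomach list 9 were called lower, against 4.79% of all genes called lower, and the other 4 (Chia1, Muc5ac, Pga5 and Tff2) did not pass. Members such as Pgc, Gkn2 and Atp4b were at or near 0 CPM in the combination, anti-PD1 and vehicle groups. They passed the filter on low counts only through libraries where they were high. The number called and the list's median follow in part from that filter, so the share of all genes is no even measure for them. Pgc (ENSMUSG00000023987.14, chromosome 17 from 47726842 to 47734482), the gastric protease precursor progastricsin, had 0 counts in all 5 libraries of the combination, against 41.2, 38.2, 5.46 and 51.9 CPM with regorafenib. With 3 counts over the combination taken as the floor, the level with regorafenib was at least 1168-fold higher (edgeR adjusted p = 0.00461). Gkn2, a gastrokine of the stomach surface, was also at 0 in the combination and at least 295-fold higher with regorafenib, and Atp4b, which codes for part of the acid pump of the stomach, at least 42.6-fold. Clps, a cofactor of lipase that the mouse stomach also makes, had 3 counts over the combination and 819 over regorafenib, a ratio of regorafenib to combination of 336 (exact 95% interval 114.5 to 1631, counting error only). Tff1, a trefoil peptide of gastric mucus, was at 0.433, 0.414, 0.613, 0.578 and 0.399 CPM in the combination, against 8.89, 4.16, 1.01 and 11.5 CPM with regorafenib. Regorafenib 3 was the lowest of its group for each of the 9 called stomach genes. Gkn2 lost its call without regorafenib 4 (adjusted p = 0.0583), and DESeq2 called 5 of the 9 and limma 7. Over the 13 tested genes the median log2 change was -7.53 as fitted and -5.41 with the genes at or under the floor set to their bound.

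As a share of all counts, the 9 called stomach genes held at most 9.34e-05% in any library of the combination, against 0.0107%, 0.00704%, 0.00115% and 0.0143% in regorafenib 1 to 4. They held at most 0.000206% with anti-PD1 and 7.69e-05% with vehicle, and 0.00167% in 1 library of the anti-CD40 group of the series. The tissue is labelled as oral carcinoma in every sample. Whether stomach RNA in the regorafenib libraries bears on other genes was not tested. Ush1c overlapped between the groups and lost its call when any 1 of the 5 combination libraries was left out (highest adjusted p = 0.105).

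**Figure D3:**
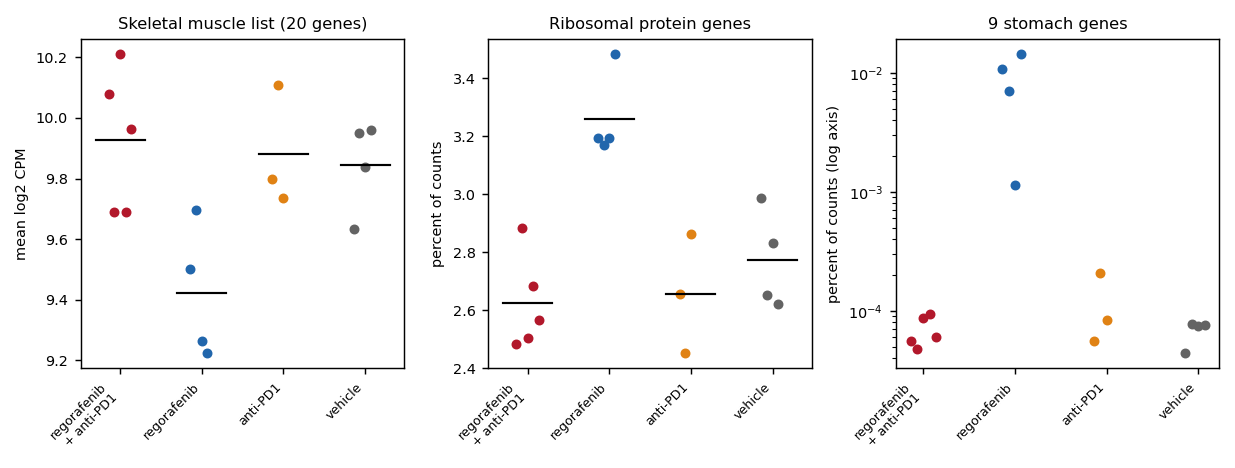
Levels that moved with the groups, by library, with a line at the mean in the first and second panels. The skeletal muscle mean (log2 CPM) is 9.69 to 10.2 in the combination and 9.22 to 9.70 with regorafenib, ribosomal protein transcripts take 2.48% to 2.88% and 3.17% to 3.48% of counts in those groups, and the 9 stomach genes (percent of counts, log axis) stand higher in the 4 regorafenib libraries than in the other libraries plotted.

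Genes of several receptors that regorafenib inhibits rose. Of 17 tested genes of the kinase target list 6 were called higher, Ddr2, Pdgfra, Pdgfrb, Flt4, Fgfr1 and Abl1, and 1 lower, Epha2, against 5.67% of all genes called higher and 4.79% called lower, and the list's median log2 change was 0.24. Ddr2 (ENSMUSG00000026674.9, chromosome 1 from 169972307 to 170110762), a collagen receptor of fibroblasts, stood at 28.8, 23.5, 29.2, 26.9 and 20.8 CPM in the combination, against 17.8, 15.3, 18.3 and 19.5 CPM with regorafenib. The ranges were apart, and the log2 change was 0.54 ± 0.11 (adjusted p = 0.00972). Pdgfra, the platelet-derived growth factor receptor of fibroblasts, averaged 38.2 ± 6.2 CPM in the combination and 25.4 ± 1.65 CPM with regorafenib (log2 change 0.59 ± 0.13, adjusted p = 0.0126). Pdgfrb, its counterpart on pericytes, averaged 36 ± 5.92 and 25.2 ± 3.26 CPM in those groups (log2 change 0.52 ± 0.13, adjusted p = 0.0214), and 35.7 ± 2.8 CPM with anti-PD1 and 35.8 ± 3.91 CPM with vehicle. Among receptors that did not pass, Kdr, the main receptor for vascular endothelial growth factor, averaged 44.9 ± 10.5 and 35.3 ± 2.14 CPM (adjusted p = 0.147), Flt1 77.4 ± 5.01 and 59 ± 4.27 CPM (adjusted p = 0.0645) and Kit 5.7 ± 2.12 and 5.18 ± 1.58 CPM (adjusted p = 0.767), with the combination first in each pair. Ddr2 and Pdgfra kept their calls with each library left out. Pdgfrb and Flt4 each lost theirs without 5 of the 9 libraries, among them combination 1 and combination 3 (highest adjusted p 0.0628 and 0.0842).

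Of vessel genes, those of lymphatics and of pericytes gave calls. Of 6 tested genes of lymphatic endothelium 4 were called higher, Lyve1, Flt4, Reln and Mmrn1, against 5.67% of all genes called higher, with a list median of 0.59. In a fit with offsets for exon length and GC content Flt4, Reln and Mmrn1 lost their calls and Lyve1 kept its own (list median 0.45). Of 12 tested pericyte and smooth muscle genes 4 were called higher, Abcc9, Rgs5, Pdgfrb and Des, against the same share, with a median of 0.31. Des also belongs to the skeletal muscle list and lost its call without 5 of the 9 libraries (highest adjusted p = 0.085). Of 15 tested genes of blood endothelium edgeR called 0, with a median of 0.24, while 7 had an unadjusted p under 0.05, DESeq2 called 2 (Flt1 and Cdh5) and limma 4 (Flt1, Cdh5, Pecam1 and Erg). Lyve1, a hyaluronan receptor that resident macrophages also carry, stood at 26.1, 18, 19.4, 17.6 and 18 CPM in the combination, against 11.6, 10.7, 12.4 and 14.6 CPM with regorafenib. No values were shared, with combination 1 far above the rest, and the log2 change was 0.69 ± 0.14 (adjusted p = 0.00934). Abcc9, a subunit of the potassium channel of pericytes and also of striated muscle, averaged 103 ± 12.7 CPM in the combination and 64 ± 7.11 CPM with regorafenib (log2 change 0.68 ± 0.12, adjusted p = 0.00504). Rgs5, a signalling regulator of pericytes, averaged 190.5 ± 26.2 and 136 ± 12.5 CPM (log2 change 0.48 ± 0.11, adjusted p = 0.0157) and lost its call without regorafenib 4 (adjusted p = 0.0606). Reln and Mmrn1 lost theirs without 5 and 8 of the 9 libraries (highest adjusted p 0.0761 and 0.12). In the fibroblast list 15 of 16 genes had a positive log2 change, but only Pdgfra passed, and of the matrix protease list Timp3, an inhibitor of metalloproteinases, was the gene called, at 145 ± 7.82 CPM in the combination and 104 ± 11.8 CPM with regorafenib (log2 change 0.48 ± 0.12, adjusted p = 0.0185). Timp3 lost its call without regorafenib 2 or regorafenib 4 (highest adjusted p = 0.0571).

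Among macrophage genes 3 receptors of the M2 or resident type rose. Of 14 tested genes of that list 3 were called higher, Cd163, Lyve1 and Mrc1, and none lower, against 5.67% of all genes called higher, with a median log2 change of 0.46, while edgeR called 0 of 15 genes common to all macrophages (median 0.06), 4 of which had an unadjusted p under 0.05, and DESeq2 and limma each called 1, Lyz2. Cd163 (ENSMUSG00000008845.9, chromosome 6 from 124304656 to 124330527), the scavenger receptor for haptoglobin and haemoglobin, stood at 22, 17.3, 17.9, 19 and 15 CPM in the combination, against 9.40, 8.95, 7.10 and 11.3 CPM with regorafenib. All 5 combination libraries were above all 4 of regorafenib, and the log2 change was 0.99 ± 0.17 (adjusted p = 0.00504). Cd163 averaged 19.1 ± 2.21 CPM with anti-PD1 and 18.3 ± 3.66 CPM with vehicle. Mrc1, the mannose receptor, averaged 13.8 ± 2.51 CPM in the combination and 9.45 ± 1.77 CPM with regorafenib (log2 change 0.55 ± 0.17, adjusted p = 0.0482), a call lost without any of 8 of the 9 libraries (highest adjusted p = 0.131). Arg1, an enzyme that depletes arginine and is also made by keratinocytes, was at 248 ± 26.3 and 264 ± 27.6 CPM (adjusted p = 0.681). Lyz2, a lysozyme of all macrophages, was at 95.3 ± 21.8 and 65.2 ± 5.01 CPM (log2 change 0.55 ± 0.18, adjusted p = 0.0652).

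Of 10 tested genes of the M1-type list 1 was called, Ptgs2, and it was lower. That is near the 10.5% of all genes called in either direction. The list's median log2 change was 0.03, with 5 genes positive and 5 negative. Ptgs2 (ENSMUSG00000032487.8, chromosome 1 from 150100031 to 150108227) encodes cyclooxygenase-2, the inducible enzyme of prostaglandin synthesis in inflamed epithelium and myeloid cells. It stood at 4.59, 4.97, 3.01, 3.71 and 3.54 CPM in the combination, against 18.1, 7.40, 7.27 and 16.4 CPM with regorafenib. Each combination library was below each regorafenib library, of which regorafenib 1 and regorafenib 4 were highest. The log2 change was -1.63 ± 0.31 (adjusted p = 0.00678), and it ranged from -1.82 to -1.39 with each library left out, called each time. Ptgs2 averaged 7.52 ± 3.27 CPM with anti-PD1 and 3.47 ± 0.935 CPM with vehicle.

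No gene of the T cell receptor and cytotoxic list passed, and few reads carried them. Of its 13 tested genes edgeR, DESeq2 and limma each called 0 and 0 had an unadjusted p under 0.05, with log2 changes between -0.52 and 0.53 and a median of 0.08. Their mean log2 CPM ran from -0.18 to 0.38 in the combination and from -0.17 to 0.43 with regorafenib, ranges that overlapped almost fully, and from -0.15 to 0.58 with anti-PD1 and from -1.04 to -0.40 with vehicle. Cd8a, the co-receptor of cytotoxic T cells, averaged 1.14 ± 0.587 CPM in the combination and 0.914 ± 0.314 CPM with regorafenib (log2 change 0.28 ± 0.34, adjusted p = 0.63). Cd3e, a subunit of the receptor complex, averaged 1.23 ± 0.142 and 1.34 ± 0.22 CPM (log2 change -0.12 ± 0.24, adjusted p = 0.781). The target of the antibody, Pdcd1, averaged 0.962 ± 0.334 and 1.17 ± 0.323 CPM (log2 change -0.27 ± 0.32, adjusted p = 0.608), and its ligand Cd274 averaged 8.47 ± 1.92 and 6.55 ± 1.05 CPM (log2 change 0.37 ± 0.26, adjusted p = 0.355). Foxp3, the regulator of regulatory T cells, averaged 0.93 ± 0.184 and 0.882 ± 0.381 CPM (adjusted p = 0.937). Gzmb, Prf1, Ifng and Pdcd1lg2 were too low to be tested, with 17, 28, 7 and 12 counts over the 5 libraries of the combination and 24, 7, 6 and 6 over the 4 of regorafenib. At SEs of this size changes such as those of Cd8a and Pdcd1 were not detectable. Of the 14 tested checkpoint and regulatory genes 1 was called, Ikzf2, against 5.67% of all genes called higher. Ikzf2 averaged 12 ± 0.718 CPM in the combination and 9.21 ± 0.233 CPM with regorafenib (log2 change 0.38 ± 0.11, adjusted p = 0.0407). The call was lost without any of 8 of the 9 libraries (highest adjusted p = 0.105).

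Interferon-induced genes had positive log2 changes with wide error. All 20 tested genes of the type I list had a positive log2 change, with a median of 0.60, but 2 passed, Rsad2 and Ifit2, a share near the 5.67% of all genes called higher. Of 12 tested interferon-gamma genes 11 had a positive log2 change, with a median of 0.66, and edgeR called 0, with 4 at an unadjusted p under 0.05. DESeq2 called 3 of these, Gbp7, Gbp3 and Irgm1, and limma called Gbp7. Gbp7, a guanylate-binding protein, had the smallest p, at 10.4 ± 2.3 CPM in the combination and 6.57 ± 1.58 CPM with regorafenib (adjusted p = 0.0654). Genes of a list move together in each library, so a shared sign is not a count of independent results. Rsad2 (ENSMUSG00000020641.16, chromosome 12 from 26442746 to 26456452), the antiviral enzyme viperin, stood at 15.2, 8.57, 10.3, 12.5 and 12.7 CPM in the combination, against 6.08, 8.95, 5.13 and 5.85 CPM with regorafenib. The groups overlapped, since combination 2 lay below regorafenib 2, and the log2 change was 0.86 ± 0.20 (adjusted p = 0.0138). Rsad2 lost its call without regorafenib 4 (adjusted p = 0.0543), and Ifit2, which binds viral RNA, lost its own without any of 7 libraries (highest adjusted p = 0.105).

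The promoter window of Rsad2, chosen after its values were seen, is shown for the element through which interferon acts, with the match in capitals to GAAA, any 2 bases and GAAA again, or to the reverse complement, (RefSeq, GRCm38.p6, chr12:26456403-26456702, minus strand).
Rsad2: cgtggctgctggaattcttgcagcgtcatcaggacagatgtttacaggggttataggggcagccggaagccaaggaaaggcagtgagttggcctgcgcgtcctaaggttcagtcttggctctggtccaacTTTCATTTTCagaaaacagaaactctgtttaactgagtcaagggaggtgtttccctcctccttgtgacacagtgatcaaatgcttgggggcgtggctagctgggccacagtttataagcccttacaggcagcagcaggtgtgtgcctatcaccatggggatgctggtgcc
In Rsad2 the match is the reverse complement. The letters were found, on either strand, in 9 of the 14 type I genes with a window (64.3%), none of the 16 muscle genes and 3.99% of all 27025 genes of the table. This describes the windows and does not show which factor acts there.

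Of 9 tested genes of chemokines and their receptors 1 was called, near the 10.5% of all genes called in either direction, and of antigen presentation none. Cxcl9, which attracts activated T cells, was at 14.4, 8.81, 7.74, 23.3 and 5.43 CPM in the combination, against 0.745, 6.20, 3.21 and 8.73 CPM with regorafenib. The libraries overlapped widely, and the log2 change of 1.32 ± 0.65 did not pass (adjusted p = 0.199). Cxcl10, of the same class, averaged 4.79 ± 4.09 and 1.96 ± 1.03 CPM (log2 change 1.28 ± 0.68, adjusted p = 0.232). With anti-PD1 alone Cxcl9 and Cxcl10 averaged 29.5 ± 13.2 and 14.8 ± 4.4 CPM, and with vehicle 4.38 ± 2.68 and 2 ± 1.04 CPM. Cxcl11, annotated as a polymorphic pseudogene, was called higher, at 1.46 ± 0.303 CPM in the combination and 0.86 ± 0.195 CPM with regorafenib (log2 change 0.77 ± 0.24, adjusted p = 0.0447), and lost the call without any of 5 libraries (highest adjusted p = 0.131). DESeq2 called Ccr2 of this list and not Cxcl11, and limma called both. Of 13 genes of MHC class I presentation and 8 of class II, with medians of 0.05 and -0.12, edgeR, DESeq2 and limma each called 0, and 0 had an unadjusted p under 0.05. The same held for 13 neutrophil genes and 5 genes of B and plasma cells. In the lists of dendritic cells and of mast cells edgeR called 0, with 2 of 12 and 1 of 9 genes at an unadjusted p under 0.05. DESeq2 called Zbtb46, a factor of dendritic cells, and limma called Zbtb46 and Flt3. Of 13 targets of CD40 and NF-kappa-B 12 had a negative log2 change (median -0.20), edgeR called 0, with 3 at an unadjusted p under 0.05, and DESeq2 and limma each called Nfkbia, the inhibitor that NF-kappa-B induces, at 87.4 ± 11.2 CPM in the combination and 112 ± 6.17 CPM with regorafenib (edgeR adjusted p = 0.0599).

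Immediate early genes, which respond quickly to growth factors and stress, were called in 1 direction. Of 14 tested genes 4 were called lower, Ier2, Myc, Zfp36 and Junb, and none higher, against 4.79% of all genes called lower, with a median log2 change of -0.28. Ier2, a nuclear protein of this class, stood at 32.4, 34.1, 30.5, 38.2 and 38.4 CPM in the combination, against 44.2, 48.4, 42.6 and 49.2 CPM with regorafenib. The groups did not overlap, and the log2 change was -0.41 ± 0.09 (adjusted p = 0.0116). Dusp1, a phosphatase that switches off p38 and is itself stress-induced, averaged 51.4 ± 2.73 CPM in the combination and 71.8 ± 14.2 CPM with regorafenib (log2 change -0.48 ± 0.11, adjusted p = 0.0147), and 85.2 ± 12.3 CPM with anti-PD1 and 87.6 ± 8.35 CPM with vehicle. Of the p38 axis, Mef2c was called higher, as was Mapkapk2, the kinase downstream of p38, at a log2 change of 0.25 ± 0.08 (adjusted p = 0.0491). Mapk14, Creb1 and Klf4 did not pass, at log2 changes of -0.06 ± 0.05, -0.06 ± 0.07 and -0.20 ± 0.11 (adjusted p = 0.456, 0.623 and 0.254). Myc averaged 47.4 ± 5.92 CPM in the combination and 61.7 ± 7.19 CPM with regorafenib (log2 change -0.38 ± 0.09, adjusted p = 0.0192). Of heat shock genes Hspb1 and Dnajb1 were called lower among 12 (median -0.17), at 443 ± 20.1 against 553 ± 9.38 CPM and at 92.4 ± 9.04 against 114 ± 6.79 CPM. Of 13 genes of the unfolded protein and integrated stress response edgeR called 0 (median -0.11), with 2 at an unadjusted p under 0.05. DESeq2 called Ddit4, an inhibitor of mTOR signalling, and limma Ddit4 and Atf4. Ier2, Dusp1 and Hspb1 kept their calls with each library left out, but Hspb1 lost its own with offsets for exon length and GC content. Myc and Dnajb1 each lost theirs without 3 libraries, regorafenib 4 and combination 1 among them (highest adjusted p 0.0804 and 0.0594), and Zfp36, Junb and Mapkapk2 without 5, 7 and 8 (highest 0.109, 0.124 and 0.131).

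Called NRF2 target genes fell, and called genes of glucose use went in both directions. NRF2, a factor that senses oxidants and electrophiles, drives detoxifying enzymes, and of its 12 tested targets 5 were called lower (Nqo1, Gsta4, Gsta1, Gclm and G6pdx) and none higher, against 4.79% of all genes called lower, with a median log2 change of -0.28. Nqo1 (ENSMUSG00000003849.8, chromosome 8 from 107388225 to 107403206), a quinone reductase, stood at 181, 195, 158, 188 and 186 CPM in the combination, against 274, 235, 229 and 216 CPM with regorafenib. All combination libraries were below all regorafenib libraries, and the log2 change was -0.40 ± 0.09 (adjusted p = 0.0137). Nqo1 averaged 181 ± 18.8 CPM with anti-PD1 and 236 ± 27.1 CPM with vehicle. Slc2a1 (ENSMUSG00000028645.11, chromosome 4 from 119108711 to 119137983), the glucose transporter, was at 96.4, 123, 97.5, 100.4 and 127 CPM in the combination, against 152, 133, 130 and 185 CPM with regorafenib. The groups did not overlap, and the log2 change was -0.46 ± 0.12 (adjusted p = 0.022). Slc2a1 averaged 98.3 ± 11.5 CPM with anti-PD1 and 78.1 ± 8.55 CPM with vehicle. Slc2a1 belongs to a list of hypoxia and glycolysis genes, of which 3 of 17 tested were called lower and 1 higher, 10 had a negative and 7 a positive log2 change, and the median was -0.02. Pfkl and Eno1, enzymes of glycolysis, were its other genes called lower, at log2 changes of -0.38 ± 0.09 (adjusted p = 0.0133) and -0.39 ± 0.10 (adjusted p = 0.0207), while Pdk1, which holds pyruvate back from the mitochondria, was called higher, at 0.20 ± 0.06 (adjusted p = 0.0346), a call lost without any of 6 libraries (highest adjusted p = 0.103). Of 16 subunits of oxidative phosphorylation all had a positive log2 change and 2 were called higher (5 by DESeq2 and 6 by limma), against 5.67% of all genes called higher by edgeR. The 2 were Ndufs1 (0.38 ± 0.08, adjusted p = 0.0106) and Sdha (0.39 ± 0.09, adjusted p = 0.0166). The median of the 16 was 0.17, and -0.02 with the muscle mean as a covariate. Nqo1 and Ndufs1 kept their calls with each library left out, but Ndufs1 lost its call with offsets for exon length and GC content. Pfkl and Sdha lost theirs without regorafenib 4 (adjusted p = 0.0599 each), Gsta4 without regorafenib 1 (adjusted p = 0.0519), Eno1 without regorafenib 4 or combination 1 (highest 0.0895), and Slc2a1, Gsta1 and Gclm each without 4 libraries (highest 0.0903, 0.0848 and 0.0878).

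Epithelial and growth factor lists held calls in both directions, against 5.67% of all genes called higher and 4.79% called lower. Of 13 tested basal keratinocyte genes 3 were called lower, Krt14, Krt5 and Sox2, and 1 higher, Dst, which encodes a linker of keratin to hemidesmosomes and has forms in muscle and nerve. Krt14 averaged 2705 ± 625 CPM in the combination and 4067 ± 522 CPM with regorafenib (log2 change -0.59 ± 0.18, adjusted p = 0.0479), and 2133 ± 470 CPM with vehicle. It lost its call with RLE scaling and without any of 7 libraries (highest adjusted p = 0.136). All 11 wound keratinocyte genes had a negative log2 change, with a median of -0.49, but Sprr1b alone passed (DESeq2 and limma called Krt16 and Krt6a besides), at 367 ± 51 CPM in the combination and 517 ± 40.9 CPM with regorafenib (adjusted p = 0.0302). Of 12 tested genes of the EGF receptor family and its ligands 2 were called lower and 1 higher (median -0.13). Areg, a ligand of the EGF receptor, was at 3.72, 5.03, 2.51, 4.72 and 4.48 CPM in the combination, against 12.7, 4.83, 7.55 and 9.09 CPM with regorafenib. The groups overlapped, and the log2 change was -1.06 ± 0.31 (adjusted p = 0.0424). Epgn, another ligand, was called lower at -0.65 ± 0.18 (adjusted p = 0.0289), and Erbb4, a receptor of the family, higher at 0.72 ± 0.21 (adjusted p = 0.0363). Of 14 tested genes of epithelial-mesenchymal transition (median -0.09), the repressors Zeb2 (0.60 ± 0.12, adjusted p = 0.00799) and Zeb1 (0.47 ± 0.11, adjusted p = 0.016) were called higher, and the adhesion protein gene Cdh1 (-0.28 ± 0.08, adjusted p = 0.0298) and Snai2 (-0.39 ± 0.11, adjusted p = 0.0367) lower. Of 20 proliferation genes Birc5 and Aurka were called lower, and 19 had a negative log2 change (median -0.22). Of 17 suprabasal keratinocyte and cornification genes edgeR called 0 (median -0.22), 4 had an unadjusted p under 0.05, and DESeq2 and limma each called the transglutaminase genes Tgm3 and Tgm1. Zeb2 kept its call with each library left out. Zeb1 lost its own without regorafenib 4 (adjusted p = 0.0573) and with offsets for exon length and GC content. Sprr1b, Areg, Epgn, Erbb4, Cdh1, Snai2, Birc5, Aurka, Krt5, Sox2 and Dst each lost theirs without 4 to 7 of the 9 libraries, combination 3 and regorafenib 4 among them (highest adjusted p 0.178, for Krt5).

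Ribosomal protein genes, which were looked at as a group after the data had been seen, were lower almost throughout. Of 78 tested genes 72 were called lower and none higher, against 4.79% of all genes called lower, with a median log2 change of -0.30. The count was 25 without regorafenib 4, 43 without combination 1, 48 without combination 3 and 31 with offsets for exon length and GC content, and none was called with the muscle mean as a covariate (median -0.19). Length moved with the change as well. Exon length had a median of 6467 bases in genes called higher and 2594.5 in those called lower, against 3942 for all tested genes. With tested genes put into 10 bins of equal number by length, the median log2 change was -0.15 in the shortest bin (median 741.5 bases) and 0.10 in the longest (11874 bases), while for anti-PD1 against vehicle it was -0.02 in the shortest and -0.07 in the longest. The part of transcript length in the calls was not tested beyond an offset for length and GC content, with which 517 genes were called higher and 664 lower, at median lengths of 4802 and 5143.5 bases. Of the 20 skeletal muscle genes 10 were called higher in that fit. Pericyte and smooth muscle genes had 4 called higher and stomach genes 9 called lower, as without the offsets. Several other lists had fewer calls. Kinase target genes had 3 called higher and 2 lower, lymphatic genes 1 higher, M2-type genes 2 higher, and NRF2 targets and immediate early genes 3 lower each. Basal and wound keratinocyte genes had 0 called in either direction.

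**Figure D4:**
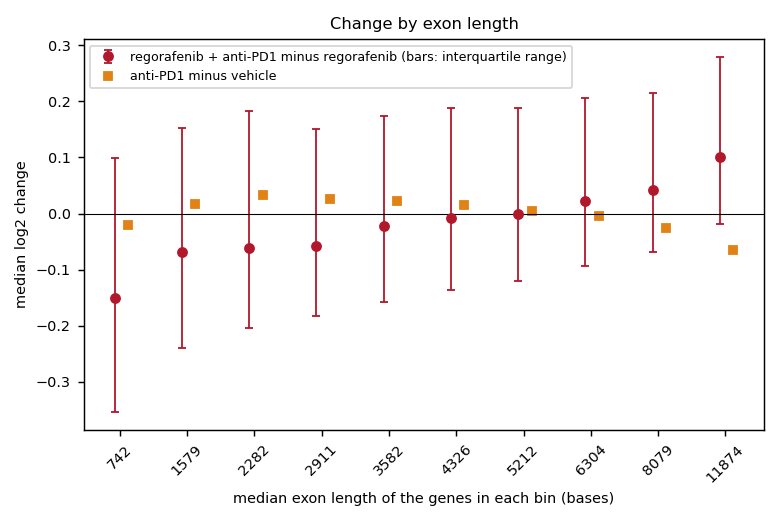
Median log2 change of genes in 10 bins of exon length, shortest on the left. Red points are the combination minus regorafenib, with bars over the interquartile range of genes, and run from -0.15 to 0.10; orange squares are anti-PD1 minus vehicle.

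The change made by anti-PD1 on top of regorafenib was tested against the change made by anti-PD1 alone over vehicle, 2 differences that share no library. The 2 differences differed for 106 genes (0.627% of those tested), 76 with a positive difference and 30 with a negative one, and 2669 genes had an unadjusted p under 0.05. Of the 106, 90 were among those called in the combination against regorafenib. That comparison is part of this test, so overlap between the 2 sets of calls is built in. For all 106 genes the changes had opposite signs, which a test of their difference favours. With libraries of either group left out in turn the count was 12 without regorafenib 4, 24 without combination 4, 33 without regorafenib 1, 37 without combination 1, 38 without combination 3, 53 without combination 2, 56 without regorafenib 2, 87 without combination 5 and 113 without regorafenib 3. The first 7 of these are lower by more than 1.5 times. The count was 30 with the muscle mean as a covariate and 17 with the length and GC offsets. For anti-PD1 against vehicle itself edgeR called 0 genes at an adjusted p under 0.05, limma 3 and DESeq2 80, and 1576 had an unadjusted p under 0.05 in edgeR's fit. Dmd changed by 0.76 ± 0.09 on the log2 scale with the combination over regorafenib and by -0.25 ± 0.10 with anti-PD1 over vehicle, a difference of 1.00 ± 0.14 (adjusted p = 0.0096). For Sgcd the difference was 1.47 ± 0.22 (adjusted p = 0.0096), for Neb 0.92 ± 0.15 (adjusted p = 0.0138) and for Ryr1 0.82 ± 0.15 (adjusted p = 0.0248). Ptgs2 changed by -1.63 ± 0.31 with the combination over regorafenib and by 1.11 ± 0.35 with anti-PD1 over vehicle, a difference of -2.74 ± 0.46 (adjusted p = 0.0192).

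**Figure D5:**
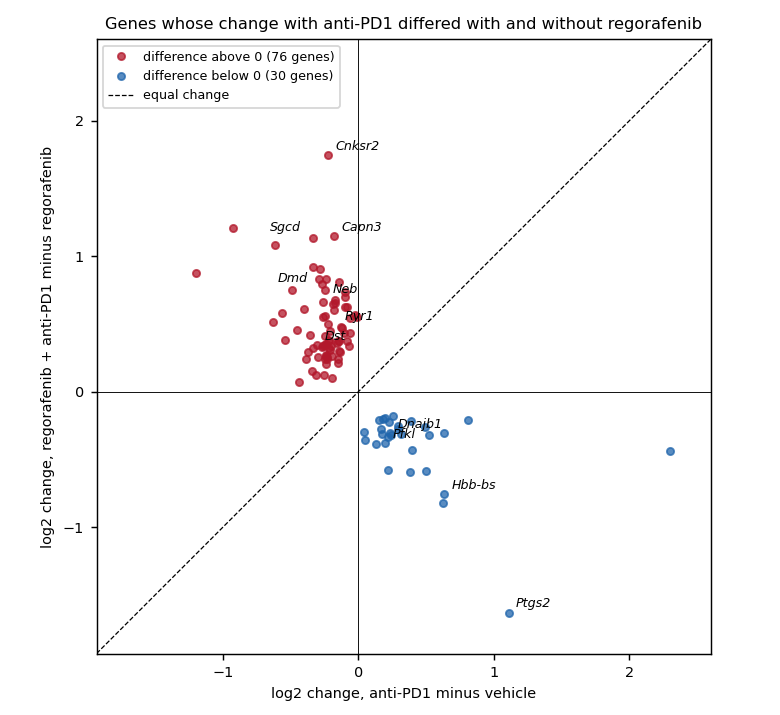
Log2 change of the combination over regorafenib (vertical) against that of anti-PD1 over vehicle (horizontal) for the 106 genes whose 2 changes differed, with the dashed line where both are equal. The 76 genes with a positive difference lie above and left of the line and the 30 with a negative difference below and right, Ptgs2 lowest at -1.63 and Dmd, Sgcd, Neb and Ryr1 among the 76.

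For immune genes edgeR called the difference between the 2 changes in few members, and DESeq2 called more in the MHC class II list. The T cell list had a median log2 change of 0.08 with the combination over regorafenib and of 1.00 with anti-PD1 over vehicle. For 0 of its 13 genes did edgeR call the difference, with 4 at an unadjusted p under 0.05, while DESeq2 called 1, Cd3e, and limma 0. For Cd3e the difference was -1.39 (adjusted p = 0.0939) and for Foxp3 it was -1.41 (adjusted p = 0.101). The interferon-gamma list had medians of 0.66 with the combination over regorafenib and 1.11 with anti-PD1 over vehicle, and the type I list 0.60 and 0.76. In both lists edgeR, DESeq2 and limma each called 0 differences, with 2 and 0 at an unadjusted p under 0.05. Ccl2, which attracts monocytes, changed by -0.43 on top of regorafenib and by 2.30 over vehicle, a difference of -2.74 ± 0.55 (adjusted p = 0.0377). H2-DMb1, which helps to load MHC class II, changed by -0.21 and by 0.81 in the same comparisons, a difference of -1.02 ± 0.22 (adjusted p = 0.0478). Ccl2 and H2-DMb1 are the members of their lists for which the difference passed in edgeR and were named for that after their values were seen. Of the 8 class II genes 7 had an unadjusted p under 0.05. DESeq2 called 6 of them, H2-DMa, H2-DMb1, H2-Ab1, H2-Aa, H2-Eb1 and Cd74, and limma called H2-DMb1. Over all genes DESeq2 called 582 such differences and limma 200, against 106 by edgeR. Of 13 class I genes 9 had an unadjusted p under 0.05, and each tool called 0. Of checkpoint genes DESeq2 and limma called Tnfrsf18, and of 12 dendritic cell genes DESeq2 called 3 and limma 1.

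The combination and regorafenib were each also set against vehicle, in comparisons that share their libraries with the one above and are given only as counts and levels. With the combination 0 genes were called higher and 4 lower than with vehicle (0.0237%), namely Dusp1, Amotl2, Mpp2 and A930016O22Rik, named after the count was seen, with 1819 genes at an unadjusted p under 0.05. DESeq2 called 48 higher and 74 lower, and limma 1 and 4. With regorafenib alone 562 were called higher and 507 lower than with vehicle (6.32%). Mean levels of Slc2a1 were 109 CPM in the combination, 150 CPM with regorafenib, 98.3 CPM with anti-PD1 and 78.1 CPM with vehicle. For Ryr1 they were 998, 635, 913 and 1027 CPM in the same order. For Cd163 they were 18.2, 9.18, 19.1 and 18.3 CPM, and for Ptgs2 3.96, 12.3, 7.52 and 3.47 CPM.

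Of other tissues, edgeR, DESeq2 and limma each called 0 of 11 genes in the salivary gland list, with 0 at an unadjusted p under 0.05, and its mean log2 CPM ran from 2.79 to 7.82 in the combination and from -0.40 to 6.62 with regorafenib. Amy1, salivary amylase, was at 3006, 843, 699, 2690 and 2405 CPM in the combination, against 362, 348, 330 and 24.2 CPM with regorafenib, groups that did not overlap although the log2 change of 2.86 ± 1.76 did not pass (adjusted p = 0.307). Hbb-bs, a haemoglobin chain, was the erythrocyte gene called, at 52.7 ± 16.4 CPM in the combination and 88.9 ± 27.7 CPM with regorafenib (log2 change -0.76 ± 0.20, adjusted p = 0.0268), and lost its call without any of 4 libraries, combination 1 and regorafenib 4 among them (highest adjusted p = 0.0983). All 6 erythrocyte genes had a negative log2 change (median -0.53), and DESeq2 called 3. Over all genes edgeR called 5.67% higher and 4.79% lower. Plin4, a lipid droplet protein of fat and muscle, was the gene called of 7 adipocyte genes, and Sox10, a factor of Schwann cells, 1 of 2 called of 10 Schwann cell genes. They were called higher at log2 changes of 0.57 ± 0.16 (adjusted p = 0.0355) and 0.55 ± 0.17 (adjusted p = 0.0436), and each lost its call without 6 of the 9 libraries (highest adjusted p 0.1 and 0.121). Mpzl2, an adhesion protein that epithelia also make, was the other Schwann list gene called, lower at -0.31 ± 0.08 (adjusted p = 0.0268), a call lost without any of 6 libraries (highest adjusted p = 0.0719). Tef, a clock-controlled factor, was called higher of 15 clock genes, at 0.38 ± 0.08 (adjusted p = 0.0104), and Ccng1 of 12 targets of p53 (3 called by DESeq2 and by limma), at 0.44 ± 0.11 (adjusted p = 0.0213). By edgeR 1 call among 15 or 12 genes is near the share of all genes called higher. Tef kept its call with each library left out, and Ccng1 lost it without combination 1, combination 3 or regorafenib 4 (highest adjusted p = 0.0786).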

How the data were processed

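RNA was measured in 19 oral tumour libraries grouped by sample title, 9 of which form the main comparison. A DNA and RNA co-extraction kit and a stranded library kit for polyadenylated mRNA were used, per the labels' protocols. Per the submitters' processing notes, the tools were cutadapt 2.4 and STAR 2.7.2a with GRCm38. What counted the reads, with which strand setting and annotation release, is not given in the sources used here, so overlapping, antisense or near-identical genes are uncertain. The deposited table holds raw counts per gene for 55487 Ensembl IDs, which the authors did not normalize. Symbols and 1-based whole-gene coordinates came from GENCODE M21 on GRCm38 (55227 IDs matched without the version). Totals per library are given with the results.

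edgeR 4.0.16 in R 4.3.3 fitted a robust quasi-likelihood model with 1 mean per group to all 19 libraries after filterByExpr and TMM, leaving 16909 genes with 99.92% of counts. SEs were computed as absolute log2 change over the root of F, and levels are mean ± SD of CPM. Tests were two-sided with Benjamini-Hochberg adjustment at 0.05. Where a group had 0 counts, 3 counts over its libraries served as the floor, and ratios on 1 to 3 counts have an exact 95% interval. List means use log2 CPM with a prior count of 2.

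Genes named are the 10 largest rises and falls among calls with at least 1 CPM in either group and no predicted symbol, up to 4 called members with the smallest p of each of 43 lists (579 genes), or the member with the smallest p where none passed, and 22 fixed genes; others are said to be chosen after their values were seen. The comparison, the lists and the members were chosen with earlier results of these data known. On simulated data for this comparison (16747 genes, 200 changed), 48% of 1.5-fold and 86% of 2-fold changes were recovered, with 4 false calls; for the interaction 66% of 2-fold differences were. All pairs among the 9 libraries differed beyond sampling noise, with the smallest ratio of chi-square to its degrees of freedom at 12.42.

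Other settings tried were DESeq2 1.42.0, limma 3.58.1 (voom with sample weights), RLE scaling, all genes unfiltered, a fit to the groups compared alone, a block for replicate number (by title and by deposited column), the skeletal muscle or salivary gland mean as a covariate and leaving out each library. Offsets for exon length and GC content and a fit without robust estimation were added after the data were seen. Promoter windows came from a RefSeq table of GRCm38.p6. Figures were drawn with matplotlib 3.10.9.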

Additional observations from a re-analysis of the deposited data

Results flagged for a closer look

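The change made by anti-PD1 differed with and without regorafenib, by edgeR's test of the difference, for 10 of the 110 genes chosen by rule. Over all genes tested it was 106, or 0.627%. The rule chose most of the 110 by their change between the combination and regorafenib, which is part of that test. The 2 shares are therefore not comparable. As log2 differences (the combination minus regorafenib, minus anti-PD1 minus vehicle), these were 1.47 for Sgcd, 1.33 for Capn3, 1.97 for Cnksr2, 0.92 for Neb, 0.82 for Ryr1 and 0.64 for Dst. They were -2.74 for Ptgs2, -0.58 for Pfkl, -0.54 for Dnajb1 and -1.39 for Hbb-bs.

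Of 292 sets of values of 1 group, 18 held a library whose gap to the nearest other was large against the range of the group; chance gives such a gap in about 5% of sets. In combination 5, Cnksr2 stood at 0.548 CPM (nearest 1.155), Ighm at 13.3 CPM (nearest 6.366) and the B and plasma cell list at a mean log2 CPM of 2.44 (nearest 1.43). In combination 1, Lyve1 stood at 26.1 CPM (nearest 19.4), Krt5 at 1940 CPM (nearest 2387) and the M2-type macrophage list at 3.44 (nearest 3.08). In combination 3, Hbb-bs stood at 81.7 CPM (nearest 48.8) and the erythrocyte list at 4.62 (nearest 3.93).

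In regorafenib 1, Gsta4 stood at 924 CPM (nearest 798), Zeb1 at 18.6 CPM (nearest 16.4), Sox2 at 30.7 CPM (nearest 41.1) and the NRF2 target list at 7.34 (nearest 7.09). In regorafenib 2, Pdk1 stood at 71 CPM (nearest 60.7) and Mmrn1 at 10.01 CPM (nearest 18). In regorafenib 3, the stomach list stood at 0.52 (nearest 2.17) and the unfolded protein response list at 5.41 (nearest 5.14). In regorafenib 4, Amy1 stood at 24.2 CPM (nearest 330) and the proliferation list at 4.61 (nearest 4.48).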

How the results depend on the processing

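The 1768 genes called in the combination against regorafenib kept their direction wherever they were refitted. Calls numbered 1094 without a filter on low counts (730 higher, 364 lower), 3052 with limma and 5 when the muscle mean entered as a covariate, and 484 to 1747 with each library left out. Within 1.5 times were RLE scaling, DESeq2 (2496), the groups compared alone, the salivary gland covariate, the length and GC offsets (1181, 517 of them higher) and the fit without robust estimation. The 106 genes whose 2 changes differed became 582 with DESeq2, 200 with limma, 164 with only the groups compared, 282 with the salivary gland covariate, 30 with the muscle covariate and 17 with the offsets, and 12 to 113 with each library left out. The share of calls that were higher, 54.19%, was 66.73% without a filter, 65.67% with the block by title number and 43.78% with the offsets. The cause was not tested.

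Replicate numbers did not pair the samples: deviations of same-numbered libraries correlated at -0.05, -0.24, -0.35 and 0.14 by title, and at -0.05, -0.24, -0.03 and -0.47 by deposited column. With the replicate block by title number 1200 genes were called and 36 differed in the interaction; with the block by column number 1891 and 3. No combination library correlated best with the regorafenib library of its own number.

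Of the 81 called genes that the rule names, 31 kept their call with every library left out in turn and 3 with the muscle covariate. The log2 changes that turned sign belonged to genes that had not passed. For Kit it was -0.074 with the block by title number and -0.082 to 0.33 with each library left out. For Cd40 it was -0.068 with the block by column number, -0.16 with the muscle covariate and -0.11 to 0.22 with each library left out. For Foxp3 it was -0.13 to 0.31 with each library left out. With the muscle covariate it was 0.057 for Creb1 and 0.015 for Klf4. Gzmb, Prf1, Ifng and Pdcd1lg2 had too few counts at this depth to be tested.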
